A study of Homo sapiens with 16 samples.

Results

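The 10 genes described here, FN1, THBS1, TGFBI, SPARC, TNC, COL4A1, COL4A2, COL6A1, COL6A2 and COL18A1, encode secreted proteins of the extracellular matrix. They were picked by gene symbol from the 26485 genes listed in each total RNA table. Of these genes 13804 had at least 1 read in a footprint library. The extracellular matrix is the protein meshwork that cells secrete around themselves and attach to through integrins. Collagens are trimers that are hydroxylated, folded and exported through the endoplasmic reticulum, and matrix glycoproteins such as fibronectin link collagen fibres, growth factors and receptors. Matrix made by breast cancer cells is known for its part in adhesion, migration and the growth of metastases.

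The material was MDA-MB-231, an established line from a human triple-negative breast cancer. All cells carried a construct and a CRISPRi system, which silences a gene by placing a transcriptional repressor on it with a guide RNA. The control condition had a guide against eGFP, which serves as the control target, and the control construct. The construct-alone condition had the eGFP guide and a construct overexpressing tRNA-Ile-UAU, written with the anticodon TAT in the labels. The knockdown-alone condition had a guide against tRNA-Ile-GAU and the control construct. The double modulation combined the tRNA-Ile-GAU guide and the construct overexpressing tRNA-Ile-UAU. The labels were not checked against tRNA-Ile levels, which were not analysed here, so the conditions are named by their labels. No further treatment was given. The source label reads "Xenograft Cell Line", while the growth notes describe culture dishes. Each condition was measured with 2 ribosome footprint libraries (RNA fragments that a ribosome shields from nuclease) and 2 total RNA libraries, giving 16 libraries in 8 groups. The series asks how ribosome occupancy of isoleucine-rich transcripts responds to this tRNA change, and codon content was not analysed here. The labels do not say that replicates are separate cultures, so p-values measure the spread between these libraries, which may be technical. The tests took most of that spread from all genes together. At most 4 degrees of freedom came from a gene's own libraries, out of 166.4 in footprints and 9.57 in total RNA. The gap between a gene's own replicates therefore weighed little in its footprint standard error. The cells that received each guide differ along with the guide, so guide and cell population cannot be told apart.

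Counts on genes ranged from 358340 to 938909 in footprints, where eGFP-guide libraries (358340 to 607919) were shallower than tRNA-Ile-GAU-guide libraries (639320 to 938909), and from 2512247 to 5446599 in total RNA. The 6 markers of a mesenchymal breast cancer line summed to 3873 to 4242 CPM (counts scaled to a common library total) in total RNA, and the 7 luminal markers to 85.8 to 195.7 CPM. Of the luminal markers, CDH1, the epithelial cadherin, lay between 0 and 1.19 CPM, ESR1 between 0 and 0.184, ERBB2 between 29.8 and 58.0 and KRT19 between 38.3 and 118.8. The 10 fibroblast markers summed to 4.38 to 14.6 CPM in total RNA, with COL3A1, DCN, LUM, THY1, FAP and POSTN at 0. The 6 endothelial markers summed to 8.07 to 14.9 CPM, with CDH5 at 0. The matrix RNA was thus measured with the defining fibroblast and endothelial markers at or near 0. In bulk libraries, fewer cells expressing a gene and less RNA per cell cannot be told apart. The 2 total RNA libraries of the double modulation stood apart from each other. Their log2 CPM correlated at 0.958 across genes and differed with an SD of 0.627, against 0.344 to 0.386 in the other total RNA pairs. The median total RNA difference of the matrix genes in that condition is therefore given with and without each of these libraries. Total RNA values of single genes use all libraries unless stated.

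Across the 4 conditions few differences of the matrix genes passed the test. Of the 10 genes 9 had enough counts to be tested, with at least 32 footprint counts in each library. Between the lowest and the highest footprint library they differed by 1.14-fold (THBS1) to 1.70-fold (FN1). TGFBI footprints were 1.38-fold lower with the knockdown alone, and COL18A1 footprints were 1.29-fold lower with the tRNA-Ile-GAU guide than with the eGFP guide. Both calls were lost by DESeq2, another test program, and with footprints thinned to the same total of counts. FN1 footprints were 1.47-fold lower in the double modulation than in the knockdown alone, a comparison added after the values had been seen. No matrix gene passed in total RNA with all libraries and the filter on low counts. Differences were tested by edgeR's quasi-likelihood test with Benjamini-Hochberg adjustment over all genes of the assay, and passing means an adjusted p under 0.05.

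**Figure D1:**
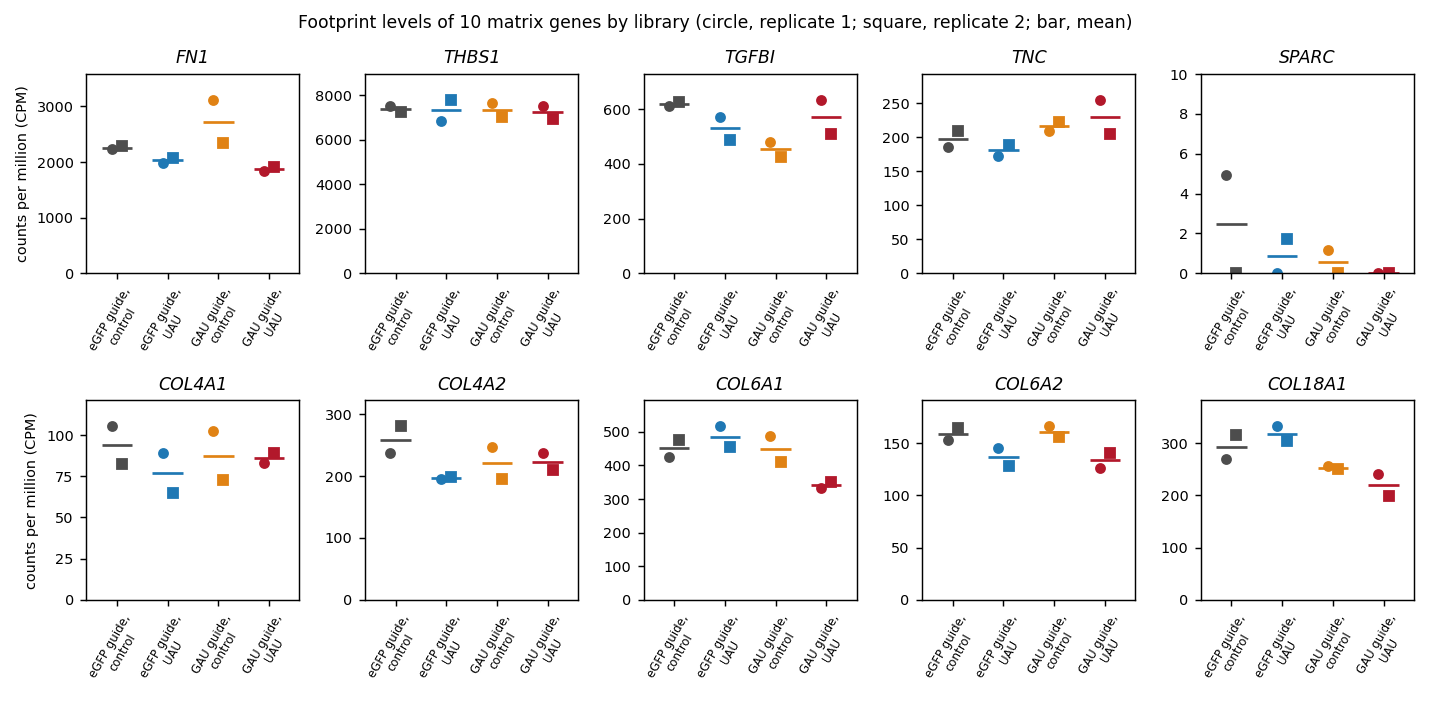
Footprint level of each of the 10 genes in CPM (linear axis from 0) in the 4 conditions. Circles are replicate 1, squares are replicate 2 and bars are the mean of 2 libraries. FN1 is highest in the knockdown alone and lowest in the double modulation, COL18A1 is lower in all 4 tRNA-Ile-GAU-guide libraries, and SPARC has 0 counts in 5 of 8 libraries.

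Promoter sequence is shown for COL4A1 and COL4A2, which share theirs, and for TGFBI and COL18A1, which passed a planned comparison. All windows are RefSeq sequence of GRCh38.p14, plus strand, with matches to GGGCGG (the GC box), to CCAAT (the CCAAT box) and to TATAAA (the TATA box) on either strand in capitals. COL4A1 and COL4A2 are read away from each other, and the first sequence is the whole 126-base interval between their starts, chr13:110307158-110307283. TGFBI is shown by the 250 bases before its start, chr5:136028738-136028987. COL18A1 has a pair of annotated start sites, with the 250 bases before each at chr21:45404915-45405164 and chr21:45455272-45455521. Transcripts from both starts are counted under 1 symbol, so the counts do not separate them.
COL4A1-COL4A2 interval: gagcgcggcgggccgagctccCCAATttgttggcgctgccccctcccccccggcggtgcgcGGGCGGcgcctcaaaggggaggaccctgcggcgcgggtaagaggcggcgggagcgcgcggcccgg
TGFBI: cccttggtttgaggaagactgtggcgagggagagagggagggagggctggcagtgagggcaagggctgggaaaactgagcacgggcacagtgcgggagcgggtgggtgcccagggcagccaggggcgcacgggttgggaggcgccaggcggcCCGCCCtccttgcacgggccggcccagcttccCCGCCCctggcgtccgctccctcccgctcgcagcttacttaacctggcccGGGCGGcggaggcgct
COL18A1, first start: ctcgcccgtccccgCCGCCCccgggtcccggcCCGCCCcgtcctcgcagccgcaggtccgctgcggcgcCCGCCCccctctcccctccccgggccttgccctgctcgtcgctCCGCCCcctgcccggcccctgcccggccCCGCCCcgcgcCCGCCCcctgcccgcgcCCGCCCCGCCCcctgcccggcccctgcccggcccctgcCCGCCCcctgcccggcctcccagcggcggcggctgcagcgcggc
COL18A1, second start: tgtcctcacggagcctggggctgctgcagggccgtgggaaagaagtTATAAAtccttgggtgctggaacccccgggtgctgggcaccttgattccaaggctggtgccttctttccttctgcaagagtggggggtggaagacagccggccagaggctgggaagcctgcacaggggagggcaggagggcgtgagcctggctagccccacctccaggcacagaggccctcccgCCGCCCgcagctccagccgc

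The shared COL4A1-COL4A2 interval has a GC content of 80.2% and holds 1 GGGCGG and 1 CCAAT. Of 35116 RefSeq promoter windows of that length, 34.6% hold GGGCGG and 21.1% hold CCAAT. The TGFBI window holds 3 matches to GGGCGG. The first COL18A1 window holds 9, a pair of them overlapping, and has a GC content of 88.4%, while the second holds 1, with 1 TATAAA. In 250-base windows, 42.6% hold GGGCGG and 10.7% TATAAA. A search for CAGAC, a short SMAD-binding element, found no match in the 4 windows, and 38% of 250-base windows hold it. These matches describe letters only.

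The glycoproteins come first. FN1, on chromosome 2 (215360865 to 215436068, GRCh38.p14), encodes fibronectin, which polymerises into fibrils on integrins. Its footprints were 2227 and 2291 CPM in control, 1990 and 2074 with the construct alone, 3116 and 2337 with the knockdown alone and 1835 and 1907 in the double modulation. The order from low to high was double modulation, construct alone, control, knockdown alone, and no neighbouring conditions overlapped, although the 2 knockdown-alone libraries were far apart. The share of all genes whose 4 conditions separate like this was not computed. FN1 total RNA was 1544 and 1958 CPM in control, 1936 and 1709 with the construct alone, 1855 and 1425 with the knockdown alone and 2065 and 1769 in the double modulation. All neighbouring conditions overlapped in total RNA.

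Within cells carrying the tRNA-Ile-GAU guide, FN1 footprints fell from 2727 ± 551 to 1871 ± 50.6 CPM (SD, n = 2 libraries) when the tRNA-Ile-UAU construct was present. The log2 fold change was -0.55 ± 0.10 (SE; adjusted p = 0.000295 by edgeR's quasi-likelihood test). FN1 was the 1 of 9 matrix genes that passed this comparison, in which 36 of 8143 genes passed (0.442%). The comparison was added because FN1 showed this pattern, so its p is not independent evidence. The value rested on 1 library: without replicate 1 of the knockdown alone it was -0.32 (adjusted p = 0.521). In total RNA the same difference was 0.21 ± 0.16 (adjusted p = 1). It lay between 0.03 and 0.42 over 13 alternatives. There, 0% of 11720 genes passed, 329 had an unadjusted p under 0.05, and DESeq2 called 2.

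Against control, FN1 footprints differed by 0.26 ± 0.10 in the knockdown alone (adjusted p = 0.281). In the double modulation the difference was -0.29 ± 0.10 (adjusted p = 0.137). Without replicate 2 of the knockdown alone, the first of these became 0.46 and passed (adjusted p = 0.0142). FN1 therefore lay on opposite sides of control with and without the construct in tRNA-Ile-GAU-guide cells, and neither difference from control passed with all libraries.

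THBS1, on chromosome 15 (39581079 to 39599466), encodes thrombospondin 1, a trimeric glycoprotein that inhibits angiogenesis and activates latent TGF-beta. Its footprints were 7532 and 7241 CPM in control, 6857 and 7795 with the construct alone, 7646 and 7028 with the knockdown alone and 7539 and 6961 in the double modulation. THBS1 was the most even of the tested genes, and every condition overlapped its neighbour. Total RNA ran from 3202 to 3812 CPM and also overlapped throughout. In the double modulation the footprint difference was -0.04 ± 0.09 (95% interval -0.23 to 0.14), and in total RNA it was 0.04 ± 0.11 (-0.21 to 0.30). Both intervals include 0.

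TGFBI, on chromosome 5 (136028988 to 136063818), encodes a TGF-beta-induced protein that binds collagens and integrins. Its footprints were 614 and 625 CPM in control, 572 and 489 with the construct alone, 481 and 425 with the knockdown alone and 634 and 510 in the double modulation. Both knockdown-alone libraries lay below every library of the other 3 conditions. For how many of all genes 1 condition separates in this way was not computed. Its total RNA was 120 and 134 CPM in control, 125 and 119 with the construct alone, 108 and 96.0 with the knockdown alone and 191 and 124 in the double modulation. The knockdown-alone libraries were again the lowest, and 1 double modulation library was far above the rest.

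With the knockdown alone, TGFBI footprints fell by 0.46 ± 0.12 on the log2 scale (adjusted p = 0.0217). It was the 1 of 9 matrix genes that passed, and 90 of 8143 genes passed (1.11%). In total RNA the difference was -0.32 ± 0.17 (adjusted p = 0.827), where 3 of 11720 genes passed (0.0256%). The footprint call was not kept without control replicate 1 (adjusted p = 0.218), control replicate 2 (0.308) or knockdown-alone replicate 2 (0.351). It was also lost with footprints thinned to the same total of counts on genes (0.23) and by DESeq2 (0.0634). The log2 fold change stayed between -0.56 and -0.37 over 14 alternatives.

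In the double modulation, TGFBI footprints differed from control by -0.12 ± 0.12 (adjusted p = 0.759) and TGFBI total RNA by 0.30 ± 0.17 (adjusted p = 0.757). The interaction, the effect of the construct with the tRNA-Ile-GAU guide minus its effect with the eGFP guide, was 0.58 ± 0.17 in footprints (adjusted p = 0.341) and 0.66 ± 0.24 in total RNA (adjusted p = 0.998). The construct within tRNA-Ile-GAU-guide cells gave 0.34 ± 0.12 in footprints (adjusted p = 0.242) and 0.62 ± 0.17 in total RNA (adjusted p = 1). These values had the same sign in both assays and passed in neither with all libraries and the filter on low counts. Without that filter the construct difference in total RNA passed (0.62, adjusted p = 0.0115). In footprints both values passed without double modulation replicate 2, the interaction at 0.71 (adjusted p = 0.0351) and the construct difference at 0.47 (adjusted p = 0.0492). The interaction had a background of 5 of 8143 genes in footprints (0.0614%) and 0% in total RNA, where 312 genes had an unadjusted p under 0.05 and DESeq2 called 0. Without replicate 2 of the double modulation in total RNA, the interaction of TGFBI was 0.92 (adjusted p = 0.000926). The construct difference within tRNA-Ile-GAU-guide cells was then 0.86 (adjusted p = 3.64e-05). These fits called 520 (4.42%) and 1095 (9.31%) of 11758 genes. Without replicate 1 neither passed. The closest genes to TGFBI in footprints over the 8 libraries were NGEF (Pearson r = 0.97), TMEM147 (0.943) and LAMTOR5 (0.941), the highest of all tested genes outside the 10 and given as a description.

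TNC, on chromosome 9 (115019575 to 115118157), encodes tenascin C, a hexameric glycoprotein that is abundant in tumour and wound matrix. Its footprints were 186 and 210 CPM in control, 173 and 189 with the construct alone, 210 and 222 with the knockdown alone and 255 and 205 in the double modulation. Total RNA was 81.6 and 84.1, 78.5 and 75.8, 89.7 and 84.0, and 118 and 79.7 CPM in the same order. The conditions stood in the same order of means in both assays, with the tRNA-Ile-GAU-guide conditions on top. With constructs pooled, the guide difference was 0.23 ± 0.11 in footprints (adjusted p = 0.344) and 0.21 ± 0.11 in total RNA (adjusted p = 0.587). Neither passed.

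SPARC, on chromosome 5 (151661096 to 151686915), encodes osteonectin, a collagen-binding protein used as a marker of invasive breast tumours and their stroma. It was close to undetected here. It had 0 to 3 counts per footprint library and 5 in all, and 1 to 4 counts per total RNA library and 19 in all. A count of 0 allows a footprint level of up to 3.20 to 8.37 CPM depending on the library (3 counts, covering counting error only). SPARC was not tested, and no direction can be read from it.

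Among the collagens, COL4A1 and COL4A2 encode the chains of the main type IV collagen of basement membranes and lie head to head on chromosome 13 (110148963 to 110307157 and 110307284 to 110513209). COL4A1 footprints were 105 and 82.5 CPM in control, 89.3 and 65.1 with the construct alone, 103 and 72.5 with the knockdown alone and 83.1 and 89.2 in the double modulation. COL4A2 footprints were 237 and 281 CPM in control, 195 and 199 with the construct alone, 247 and 196 with the knockdown alone and 238 and 210 in the double modulation. Both genes were highest on average in control, and only the construct-alone libraries of COL4A2 lay apart from control. That difference was -0.40 ± 0.16 (adjusted p = 0.857), in a comparison where 2 of 8143 genes passed (0.0246%).

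In total RNA the type IV pair leaned the other way. COL4A2 was 130 and 143 CPM in control, 144 and 147 with the construct alone, 171 and 151 with the knockdown alone and 181 and 131 in the double modulation. COL4A1 total RNA ran from 70.1 to 104 CPM and overlapped in all conditions. The difference of COL4A2 in the knockdown alone was -0.23 ± 0.14 in footprints (adjusted p = 0.632) and 0.24 ± 0.14 in total RNA (adjusted p = 0.852). Opposite signs in the 2 assays were thus seen without either passing. The ratio of COL4A2 to COL4A1 CPM, which carries the genes' different lengths, had a median of 2.56 over footprint libraries (2.19 to 3.40) and 1.75 over total RNA libraries (1.55 to 2.08). The log2 levels of the 2 genes correlated at 0.457 over the 8 footprint libraries and 0.588 over the 8 total RNA libraries, which share their library scaling.

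COL6A1 and COL6A2, on chromosome 21 (45981770 to 46005048 and 46098112 to 46132848), encode chains of type VI collagen, which forms beaded filaments around cells. COL6A1 footprints were 426 and 477 CPM in control, 516 and 454 with the construct alone, 488 and 411 with the knockdown alone and 332 and 350 in the double modulation. The double modulation libraries were the lowest, and no other condition overlapped them. How common such a separation is over all genes was not computed. COL6A1 total RNA was 202 and 202, 242 and 216, 268 and 188, and 205 and 160 CPM in the same order. There the double modulation overlapped control and the knockdown alone and lay below the construct alone.

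COL6A1 footprints differed from control by -0.42 ± 0.13 in the double modulation (adjusted p = 0.0526), just short of the threshold. There 157 of 8143 genes passed (1.93%) and none of the 9 matrix genes did, while 3 of the 9 had an unadjusted p under 0.05. Without replicate 1 or 2 of the knockdown alone, libraries that enter only through the shared estimate of spread and the scaling, the adjusted p was 0.0482 or 0.0468. In total RNA the difference was -0.15 ± 0.17 (adjusted p = 0.894). The interaction was -0.49 ± 0.18 in footprints (adjusted p = 0.665) and -0.52 ± 0.24 in total RNA (adjusted p = 0.998). The interaction of COL6A1 thus had the same sign in both assays and passed in neither.

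COL6A2 footprints were 153 and 165 CPM in control, 145 and 129 with the construct alone, 166 and 156 with the knockdown alone and 127 and 141 in the double modulation. Both conditions with the tRNA-Ile-UAU construct lay below both conditions without it. The share of all genes that separate this way by construct was not computed, and the construct was not tested with guides pooled. The construct difference was -0.24 ± 0.19 with the eGFP guide (adjusted p = 0.992) and -0.28 ± 0.16 with the tRNA-Ile-GAU guide (adjusted p = 0.658). COL6A2 total RNA was 43.0 and 42.6 CPM in control, 27.8 and 44.5 with the construct alone, 64.9 and 42.8 with the knockdown alone and 80.1 and 34.3 in the double modulation. It had the widest spread of the tested genes in total RNA, 2.88-fold from lowest to highest, and the 2 double modulation libraries were its extremes but for 1 construct-alone library. The ratio of COL6A2 to COL6A1 CPM was 0.281 to 0.402 in footprints and 0.115 to 0.390 in total RNA.

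COL18A1, on chromosome 21 (45405165 to 45513720), encodes the core protein of a basement membrane heparan sulfate proteoglycan from which the angiogenesis inhibitor endostatin is cleaved. Its footprints were 270 and 315 CPM in control, 332 and 303 with the construct alone, 256 and 250 with the knockdown alone and 241 and 199 in the double modulation. All 4 libraries with the tRNA-Ile-GAU guide lay below all 4 with the eGFP guide. COL18A1 was the 1 of 9 matrix genes for which this held in footprints, where it held for 588 of 8143 genes (7.22%). In total RNA it held for 0 of 9 matrix genes and for 1020 of 11720 genes (8.7%).

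With constructs pooled, COL18A1 footprints fell by 0.37 ± 0.10 on the log2 scale with the tRNA-Ile-GAU guide (n = 4 libraries per guide; adjusted p = 0.0171). It was the 1 of 9 matrix genes that passed, and 218 of 8143 genes passed (2.68%). Its total RNA was 85.6 and 83.8 CPM in control, 77.3 and 100.1 with the construct alone, 103 and 75.6 with the knockdown alone and 134 and 58.3 in the double modulation. The 2 double modulation libraries were the highest and the lowest of the 8. The guide difference in total RNA was 0.09 ± 0.22 (adjusted p = 0.914), where 126 of 11720 genes passed (1.08%). Without replicate 2 of the double modulation in total RNA it was 0.29 and passed (adjusted p = 0.0489), as did TNC, COL4A2 and COL6A2, in a fit that called 1820 of 11758 genes (15.5%). COL6A2 also passed with all libraries when the filter on low counts was left off (0.47, adjusted p = 0.0167). Without replicate 1 of the double modulation none of the 9 passed.

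The COL18A1 footprint call was lost without control replicate 2 (adjusted p = 0.207), construct-alone replicate 1 (0.112) or 2 (0.0585), knockdown-alone replicate 2 (0.0612) or double modulation replicate 2 (0.0819). It was also lost with thinned footprints (0.186) and by DESeq2 (0.199). Its value stayed between -0.44 and -0.31 over 14 alternatives. The median guide difference of the 76 tested genes of chromosome 21 was 0.02, and COL18A1 was the 1 gene called there. The antisense genes COL18A1-AS1 and COL18A1-AS2 had 5 to 16 and 2 to 8 counts per total RNA library, and COL4A2-AS1 had 2 to 14. Whether counting used strand is not given in the sources used here. The closest genes to COL18A1 in footprints over the 8 libraries were LAGE3 (Pearson r = 0.978), CTSD (0.959) and VPS37C (0.958).

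**Figure D2:**
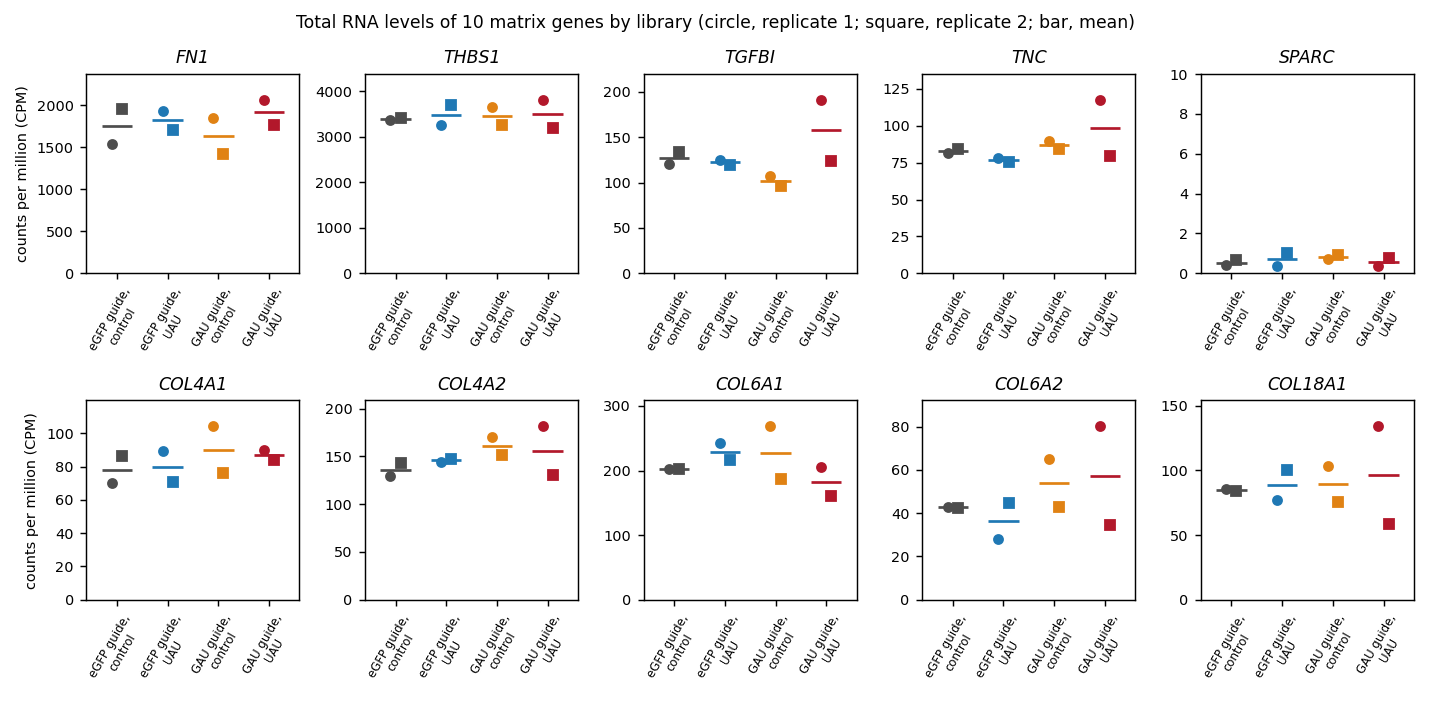
Total RNA level of each of the 10 genes in CPM (linear axis from 0), drawn as for footprints: circles replicate 1, squares replicate 2, bars the mean of 2 libraries. The 2 double modulation libraries are widely separated for TGFBI (191 and 124 CPM), COL6A2 (80.1 and 34.3) and COL18A1 (134 and 58.3).

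As a group, 8 of the 9 tested matrix genes had lower footprints in the double modulation than in control, with a median log2 fold change of -0.22 against 0.01 over all tested genes, of which 49.1% were lower. With thinned footprints 7 were lower with a median of -0.09, and without double modulation replicate 2 6 were lower. The exception was TNC at 0.21 ± 0.15. In total RNA 1 of 9 was lower, against 44.6% of all tested genes, and the median was 0.18 against 0.03. That comparison called 8 of 11720 genes (0.0683%), with no matrix gene among them. For the construct alone the footprint median was -0.16, with 7 of 9 lower against 50.4% of all tested genes. The total RNA median was 0.06 and turned to -0.10 without control replicate 1. There 0% of genes passed by edgeR, 233 had an unadjusted p under 0.05 and DESeq2 called 1. These comparisons share libraries, so the values stand side by side and do not support each other.

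The total RNA values in the double modulation depended on which of its libraries was used. Without replicate 1, the median of the 9 matrix genes was -0.04 with 7 lower, and none passed. Without replicate 2, it was 0.36 with 1 lower, and 5 rose: TGFBI (0.54, adjusted p = 0.00233), TNC (0.46, 0.0129), COL4A2 (0.36, 0.0279), COL6A2 (0.86, 0.00422) and COL18A1 (0.62, 0.00622). Over all genes, 293 passed without replicate 1 and 1854 of 11758 (15.8%) without replicate 2. The sign of the matrix genes' total RNA difference in this condition is therefore not settled by these libraries.

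**Figure D3:**
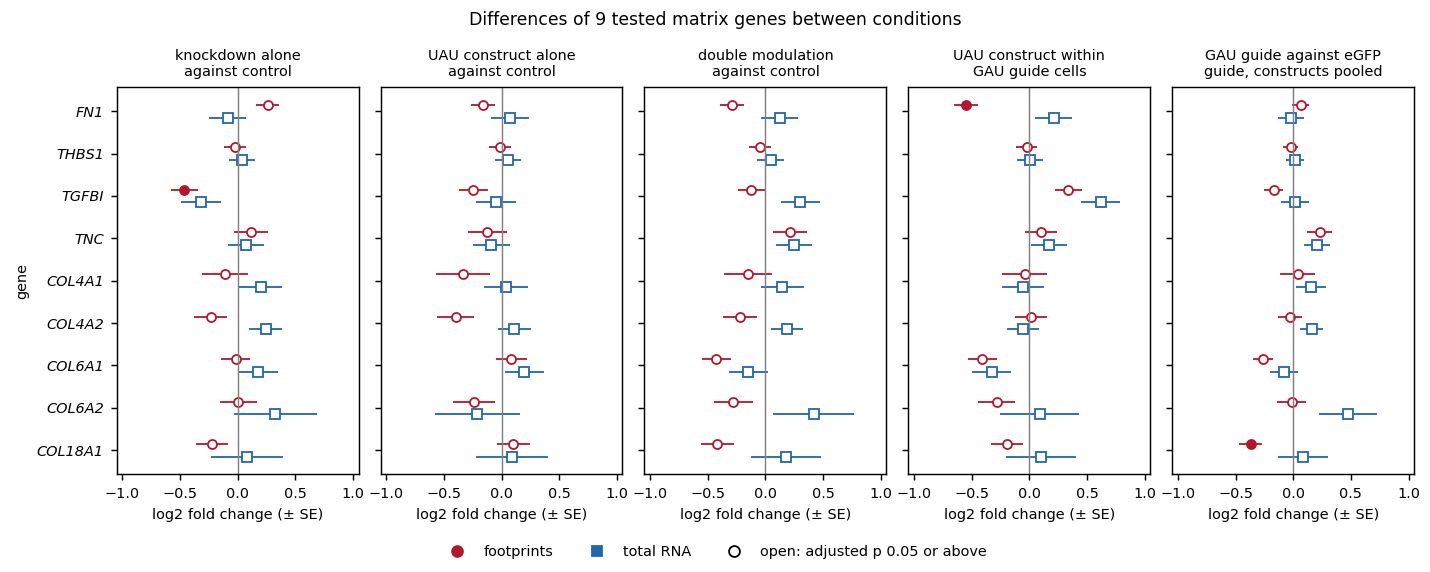
Log2 fold change with its standard error for the 9 tested genes in 5 comparisons, footprints as circles and total RNA as squares. Filled symbols have an adjusted p under 0.05: FN1 for the construct within tRNA-Ile-GAU-guide cells (-0.55), TGFBI for the knockdown alone (-0.46) and COL18A1 for the guide (-0.37), all in footprints.

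Footprints relative to total RNA, often called translational efficiency, were compared with the rest of the transcriptome. In control cells all 9 tested genes had a ratio of footprint to total RNA CPM above the median of 8012 genes. TGFBI was highest at 4.87 (percentile 87.9), followed by COL6A2 at 3.72 (82.9), COL18A1 at 3.45 (81.4), TNC at 2.39 (73.1), COL6A1 at 2.24 (71.6), THBS1 at 2.18 (70.8) and COL4A2 at 1.90 (67.2). FN1 at 1.29 (56.0) and COL4A1 at 1.20 (53.7) lay close to the median. In the other 3 conditions COL4A1 was below the median (percentiles 45.6 to 47.1), and FN1 was below it in the double modulation (46.6). Footprints come from the coding part of a transcript and total RNA from all of it, so the order between genes also carries the coding share, which was not analysed here.

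**Figure D4:**
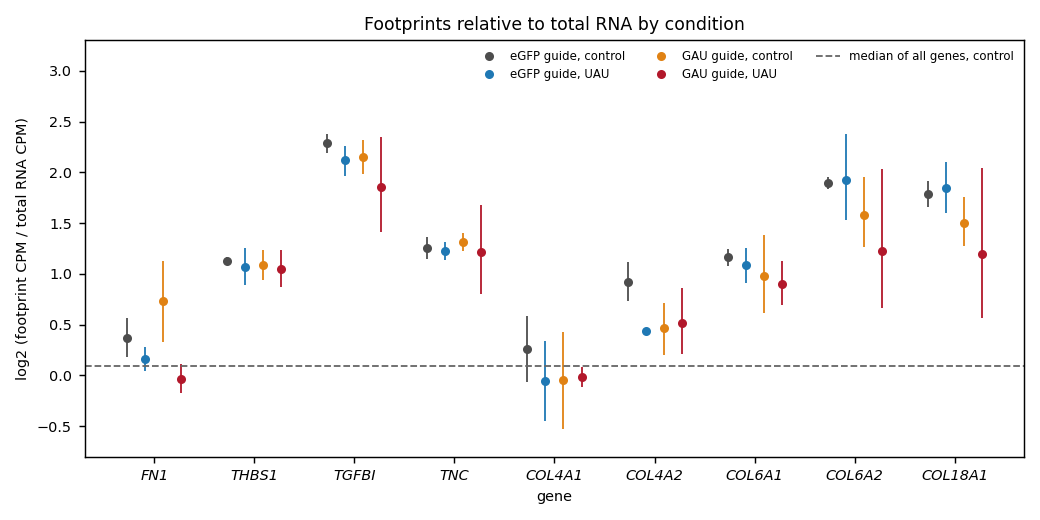
Log2 ratio of mean footprint CPM to mean total RNA CPM for the 9 tested genes in the 4 conditions. Vertical lines span the ratios over all pairings of a footprint library with a total RNA library, and the dashed line is the median of all genes in control. FN1 runs from a ratio of 0.976 in the double modulation to 1.66 in the knockdown alone, and THBS1 stays between 2.07 and 2.18.

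Across conditions the order of these ratios changed little at the top, with TGFBI between 3.63 and 4.87. FN1 moved most by percentile, from 46.6 in the double modulation to 63.6 in the knockdown alone. Tested in 1 fit of both assays, the ratio was lower in the double modulation than in control for 9 of 9 matrix genes, with a median of -0.40 against -0.02 over all genes, of which 52.3% were lower. The values ran from -0.68 ± 0.42 for COL6A2 (adjusted p = 0.949) to -0.03 ± 0.22 for TNC (adjusted p = 1). No gene passed (0% of 8012), 332 had an unadjusted p under 0.05, and DESeq2 called 0. Without replicate 1 of the double modulation in total RNA, 5 of 9 were lower with a median of -0.11, and none passed. Without its replicate 2, 9 of 9 were lower, and TGFBI (-0.63), COL6A2 (-1.10) and COL18A1 (-0.995) passed, as did 613 of 8028 genes (7.64%).

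For the guide with constructs pooled, the ratio was lower for 7 of 9 matrix genes with a median of -0.17, against 50.5% of all genes. The median was -0.05 with thinned footprints and -0.05 without replicate 1 of the knockdown alone in total RNA. Again 0% of genes passed, with 375 at an unadjusted p under 0.05 and 0 by DESeq2. Without replicate 2 of the double modulation in total RNA, the median was -0.23 with 8 of 9 lower, and COL6A2 was at -0.68 and COL18A1 at -0.65. Without its replicate 1, the median was -0.07 with 6 of 9 lower. For the construct within tRNA-Ile-GAU-guide cells, FN1 had a difference in the ratio of -0.76 ± 0.22 (adjusted p = 1). That comparison called 0% of genes, with 220 at an unadjusted p under 0.05, and DESeq2 called 1. Without replicate 2 of the double modulation in total RNA, FN1 was at -0.79. Over 22 alternatives its value lay between -0.97 and -0.52. The comparison was added because FN1 showed this pattern, and its footprint part depended on replicate 1 of the knockdown alone, so the ratio is not independent evidence.

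In footprints the Pearson correlations of log2 levels over the 8 libraries had a median of 0.133 over 36 pairs, from -0.676 for TNC with COL6A1 to 0.817 for COL6A1 with COL18A1. In total RNA the median was 0.47, with 35 of 36 pairs positive and a highest value of 0.88 for THBS1 with COL18A1. Genes of 1 library share its depth and composition, so these values are descriptions. Summed, the 10 genes took 1.06 to 1.27% of footprint counts and 0.539 to 0.688% of total RNA counts.

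Other genes of the matrix and of collagen export were taken from 4 lists, and their counts for the guide stand against 218 of 8143 genes called (2.68%). Of 24 other collagens 7 were tested in footprints, and 1 fell with the tRNA-Ile-GAU guide. It was COL13A1, a transmembrane collagen, at 370 and 469 CPM in control, 368 and 370 with the construct alone, 307 and 283 with the knockdown alone and 249.2 and 303 in the double modulation. All 4 libraries with the tRNA-Ile-GAU guide were below all 4 with the eGFP guide (log2 -0.48 ± 0.10, adjusted p = 0.000232). COL13A1 kept its call under all 14 alternatives for the guide, with a highest adjusted p of 0.0423. Its log2 fold change in the double modulation against control was -0.63 (adjusted p = 0.00122). That call was lost with thinned footprints, without control replicate 2 and without double modulation replicate 1 (highest adjusted p = 0.332).

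Of 32 other glycoproteins and proteoglycans 13 were tested and 3 fell with the guide. CYR61 and CTGF, matricellular proteins of the CCN family, fell by 0.59 and 0.51 on the log2 scale (adjusted p = 6.4e-10 and 1.39e-06) and kept their calls under all 14 alternatives. Mean CYR61 footprints were 1446 CPM in control, 1854 with the construct alone, 931 with the knockdown alone and 1297 in the double modulation. Those of CTGF were 735, 1019, 535 and 706 CPM in the same order. Neither gene passed in the double modulation against control. AGRN, the heparan sulfate proteoglycan agrin, fell by 0.35 (adjusted p = 0.0299) and lost the call in 10 of 14 alternatives. CYR61 also rose by 0.47 with the construct within tRNA-Ile-GAU-guide cells (adjusted p = 0.00888), opposite to FN1, but not without replicate 2 of the knockdown alone (0.312).

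Of 19 genes of collagen folding and secretion 17 were tested with the guide, and 2 rose and 1 fell. PLOD2, a lysyl hydroxylase of collagen cross-links, rose by 0.50 (adjusted p = 0.00198), and P3H2, a prolyl 3-hydroxylase, rose by 0.70 (adjusted p = 0.0219). PLOD2 lost the call by DESeq2 and without control replicate 2 (highest adjusted p = 0.0767). P3H2 lost it by DESeq2, with thinned footprints, and without control replicate 1 or 2 or construct-alone replicate 1 (highest 0.357). PLOD3, another lysyl hydroxylase, fell by 0.66 (adjusted p = 2.33e-07). PLOD3 lies on chromosome 7, where the median of 371 tested genes was -0.39 and 84 were called, and none of the 10 matrix genes lies there. The part of that shift in the PLOD3 value was not tested.

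Of 19 matrix receptors 16 were tested, and 1 fell with the guide. ITGB4, the laminin-binding integrin beta 4 chain, was at 628 and 619 CPM in control, 740 and 698 with the construct alone, 402 and 308 with the knockdown alone and 347 and 368 in the double modulation. The log2 fold change was -0.92 ± 0.09 (adjusted p = 7.79e-17), and no alternative removed the call. In the double modulation against control, ITGB4 fell by 0.82 and DAG1, the dystroglycan receptor for laminins and agrin, by 0.45 (adjusted p = 0.0343). DAG1 lost that call in 8 of 14 alternatives. No gene of the 4 lists passed in total RNA, where the estimated spread between libraries was wider than in footprints. From control to the knockdown alone, mean total RNA fell for CYR61 (388.4 to 297.5 CPM) and CTGF (140.9 to 114.7). It also fell for ITGB4 (96.26 to 70.53), PLOD3 (39.32 to 30.74) and COL13A1. PLOD2 and P3H2 rose, as in footprints, while AGRN rose, opposite to its footprints. Not passing therefore does not show that these differences were confined to footprints.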

How the data were processed

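Ribosome footprints and total RNA were measured in 16 libraries of MDA-MB-231 cells, 2 per condition and assay. The authors deposited unnormalised counts for each gene symbol, made with cutadapt 1.17, STAR 2.5.2a and HTSeq on hg38, per the submitters' processing notes; the settings, annotation and strand use are not given in the sources used here. Alignments to several places were 97.0 to 98.8% of all alignments in footprints and 97.2 to 98.1% in total RNA and were not counted on genes. A gene absent from a footprint table was given 0.

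From the counts, CPM was computed on counts assigned to genes. Genes were tested with edgeR 4.0.16 (R 4.3.3) by its quasi-likelihood test: filterByExpr by group (minimum count 10, minimum total 15), TMM scaling, 1 mean per group and Benjamini-Hochberg adjustment (threshold 0.05). All 8 libraries of an assay shared 1 estimate of the spread, and the ratio of footprints to RNA was tested as an interaction over all 16. This left 8143 genes in footprints, 11720 in total RNA and 8012 in both. The biological coefficient of variation was 6.71%, 14.3% and 12.5%. Without replicate 1 or 2 of the double modulation in total RNA, it was 6.18% or 6.15% in total RNA and 6.32% or 6.39% over both assays. A difference that did not pass in total RNA or in the ratio was therefore not shown to be absent. Simulated data at these depths gave calls for 45 of 98 genes changed 1.5-fold and 83 of 98 changed 2-fold in the footprint guide comparison. In the footprint knockdown comparison the calls were 24 and 64 of 98. In total RNA they were 42 and 71 of 100 for the guide and 8 and 46 of 100 for the knockdown.

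The 10 genes, the other gene lists, the tests and the alternatives were chosen with earlier results of these data known. All 10 were named; of the other lists, genes past the threshold for the guide or double modulation were named, and for each matrix gene that passed, the 3 most correlated genes. Those of FN1 are not reported here. The construct within tRNA-Ile-GAU-guide cells was compared only after seeing the values. Alternatives were RLE scaling, no filter, DESeq2 1.42.0, a replicate block, no chromosome 7 genes, thinned footprints (358340 counts) and leaving out each library. Positions and promoters come from RefSeq tables of GRCh38.p14, in which 9 of 10 genes have a promoter window.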

Additional observations from a re-analysis of the deposited data

How the results depend on the processing

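Each comparison was repeated with the alternatives named among the methods. The 3 calls on matrix genes kept their direction in every alternative run. In footprints, the 90 genes past the threshold for the knockdown alone became 25 by DESeq2, 42 without chromosome 7 genes and 50 with thinned footprints, and 18 to 112 when each library was left out; the 1 matrix gene became 0 by DESeq2 and 0 with thinning, and 0 to 1 when libraries were left out. For the construct alone, 2 genes became 0 without the filter, 0 by DESeq2 and 0 with thinning (0 to 5 leaving out libraries). For the double modulation, 157 became 48 by DESeq2, 98 without chromosome 7 and 80 with thinning (35 to 173), and the matrix genes 0 to 1. For the guide, 218 became 69, 106 and 127 in the same order (123 to 215), and the 1 matrix gene became 0 by DESeq2 and 0 with thinning (0 to 2). For the construct within tRNA-Ile-GAU-guide cells, 36 became 21 by DESeq2 (15 to 61; matrix genes 0 to 2), and for the interaction 5 became 0 by DESeq2 (0 to 10; matrix genes 0 to 1). Apart from the lower number of genes, libraries or reads in some alternatives, the cause was not tested.

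In total RNA, without the filter on low counts the calls were 99 for the knockdown alone, 5 for the construct alone, 185 for the double modulation, 486 for the guide, 35 for the construct within tRNA-Ile-GAU-guide cells and 40 for the interaction. COL6A2 then passed for the guide and TGFBI for the construct within tRNA-Ile-GAU-guide cells, 1 matrix gene each. DESeq2 called 41 for the knockdown alone, 1 for the construct alone, 54 for the double modulation and 2 for the construct within tRNA-Ile-GAU-guide cells, and without chromosome 7 genes 4 passed for the double modulation and 14 for the guide. Leaving out libraries gave 0 to 241 for the knockdown alone, 0 to 5 for the construct alone, 0 to 1854 for the double modulation (matrix genes 0 to 5), 6 to 1820 for the guide (0 to 4), 0 to 1095 for the construct within tRNA-Ile-GAU-guide cells (0 to 3) and 0 to 520 for the interaction (0 to 1). For the ratio of footprints to RNA the ranges were 0 to 613 for the double modulation (matrix genes 0 to 3), 0 to 436 for the guide (0 to 2) and 0 to 317 for the construct within tRNA-Ile-GAU-guide cells (0 to 3), the last with 1 gene each under RLE, no filter, DESeq2 and thinning.

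The labels do not say whether same-numbered libraries were paired. Their deviations from the group means correlated at -0.038 to 0.064 in footprints and -0.422 to 0.356 in total RNA, which does not settle it. The biological coefficient of variation in footprints was 5.82% with a replicate block and 6.71% without. With a replicate block, calls went to 4 for the construct alone, 8 for the interaction and 67 for the construct within tRNA-Ile-GAU-guide cells in footprints, and to 1 for the double modulation and 53 for the guide in total RNA. COL6A1 then passed in footprints of the double modulation (adjusted p = 0.0263), 1 matrix gene where there was 0. Depth limits SPARC, and 2 libraries per group limit all calls.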
